A study of Mus musculus with 6 samples.

Results

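The genes described here are the enzymes that take acetyl or methyl groups off lysines: the histone deacetylases (11 Hdac genes), the sirtuins (7 Sirt genes) and the lysine demethylases (17 Kdm genes), together with Ehmt1 and Ehmt2, a pair of methyltransferases that add methyl groups to lysine 9 of histone H3. They were chosen by symbol alone, as every Hdac, Sirt, Kdm or Ehmt symbol followed by its family number and letter, with Kdm5d left out. The rule uses no measured value, although these families were picked with earlier results of the data known. The rule found 37 genes among the 45808 gene lines of the deposited table. Of these, 36 passed the filter on low counts and were tested among 14459 genes, and Kdm4d was not.

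The series followed the stromal-vascular fraction of inguinal white fat, the mixed cells left after digestion of the tissue, as it was driven towards beige adipocytes in culture. Its title concerns Naa10, an enzyme that acetylates the amino ends of proteins, and the coactivator PGC-1 alpha, but all 6 libraries used here are labelled WT (wild-type) and came from male mice 8 weeks old. Day 0 was the confluent culture with no inducer. Day 2 followed 2 days in induction medium with IBMX (0.5 mM, a phosphodiesterase inhibitor), dexamethasone (5 µM, a glucocorticoid), indomethacin (125 µM, a cyclooxygenase inhibitor), insulin (850 nM), T3 (1 nM, a thyroid hormone) and rosiglitazone (1 µM, an agonist of PPAR gamma). Day 6 followed the same induction and then maintenance medium with insulin, T3 and rosiglitazone at those doses. Each day had 2 libraries, numbered 76 and 77, and the sources used here do not say if these are different animals or dishes, so a p-value here reflects only how much these libraries vary.

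Acetyl groups on histone tails loosen chromatin and mark active genes, and deacetylases remove them, mostly as part of corepressor complexes. The Hdac enzymes use zinc, whereas the sirtuins consume NAD, which ties them to the cell's metabolic state, and some sirtuins work inside mitochondria. Lysine demethylases fall into flavin-dependent enzymes (Kdm1a and Kdm1b) and enzymes with a JmjC domain, which need iron, oxygen and 2-oxoglutarate. In fat, several of these enzymes are known as regulators of the choice between white, beige and brown adipocytes, among them Sirt1, Kdm1a and Ehmt1.

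Between 22522221 and 29458374 counts per library fell in genes. Libraries of the same day were not repeats of each other within counting error: their chi-square per degree of freedom was 6.75 (day 0), 7.53 (day 2) and 26.3 (day 6). Adipocyte markers followed the course: all 7 rose at each step, and their summed level was between 1034 and 1202 CPM (read counts scaled by library size and TMM factors) at day 0, between 9567 and 10372 at day 2 and between 39543 and 46864 at day 6. Ucp1, the heat-producing protein by which beige cells are defined, held no more than 13 counts in any library and 1 count in all at day 6, when Ppargc1a, the gene of PGC-1 alpha, stood at 47.7 and 39.6 CPM. Markers of 7 adipose precursor genes summed to 1810 to 1824 CPM at day 0 and 689 to 1037 at day 6, those of macrophages to 28.2 to 120.3 CPM over all libraries, and those of lymphocytes to at most 0.299 CPM, with Cd3e at 0 throughout. Skeletal muscle markers summed to at most 38.1 CPM, with Myf5 at 0 in every library.

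Most of the 36 enzymes tested changed over the course, and the median size of their changes was smaller than that of all genes tested. A change is called here where the adjusted p of edgeR's quasi-likelihood test, with Benjamini-Hochberg adjustment over all genes tested, was below 0.05. Between any of the days 30 of the 36 members differed, against 84.8% of all genes tested. From day 0 to day 2, 8 members rose and 15 fell, against 67.1% of all genes called in either direction, 33.6% higher and 33.6% lower. From day 0 to day 6, 12 rose and 15 fell, against a background of 70.9% (35.9% higher, 35.1% lower). From day 2 to day 6, 13 rose and 7 fell, against 65.7% (38.2% higher, 27.5% lower). The members called in either direction were 63.9%, 75% and 55.6% of those tested in these 3 comparisons. The median size of a member's change, whatever its sign, was 0.40, 0.46 and 0.26 on the log2 scale in these comparisons, and that of all genes tested was 0.60, 0.72 and 0.61. Changes of at least 1.5-fold were called for 10, 12 and 8 members (27.8%, 33.3% and 22.2%), against 46.2%, 52.2% and 45.7% of all genes. The libraries of the 2 days compared did not overlap for 28, 32 and 32 of the 36 members. The same held for 12455, 12566 and 11918 of the 14459 genes tested, so a lack of overlap, where named below, is common among all genes.

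The split between day 2 and day 6 depended on how the libraries were scaled. The median change of all genes tested was 0.00 and -0.01 for days 2 and 6 against day 0. For day 6 against day 2 it was 0.12. Some changes between those later days are therefore also given relative to that median, and the others are not corrected for it. With scaling by library totals the 3 medians were 0.12, -0.26 and -0.23, and the members split into 6 higher and 22 lower between day 2 and day 6, and 6 higher and 20 lower between day 0 and day 6. With the day 0 library 77 left out, the split between day 2 and day 6 was 7 higher and 13 lower, and with DESeq2's size factors it was 10 higher and 12 lower. Any 2 of the comparisons share the libraries of a day.

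**Figure D1:**
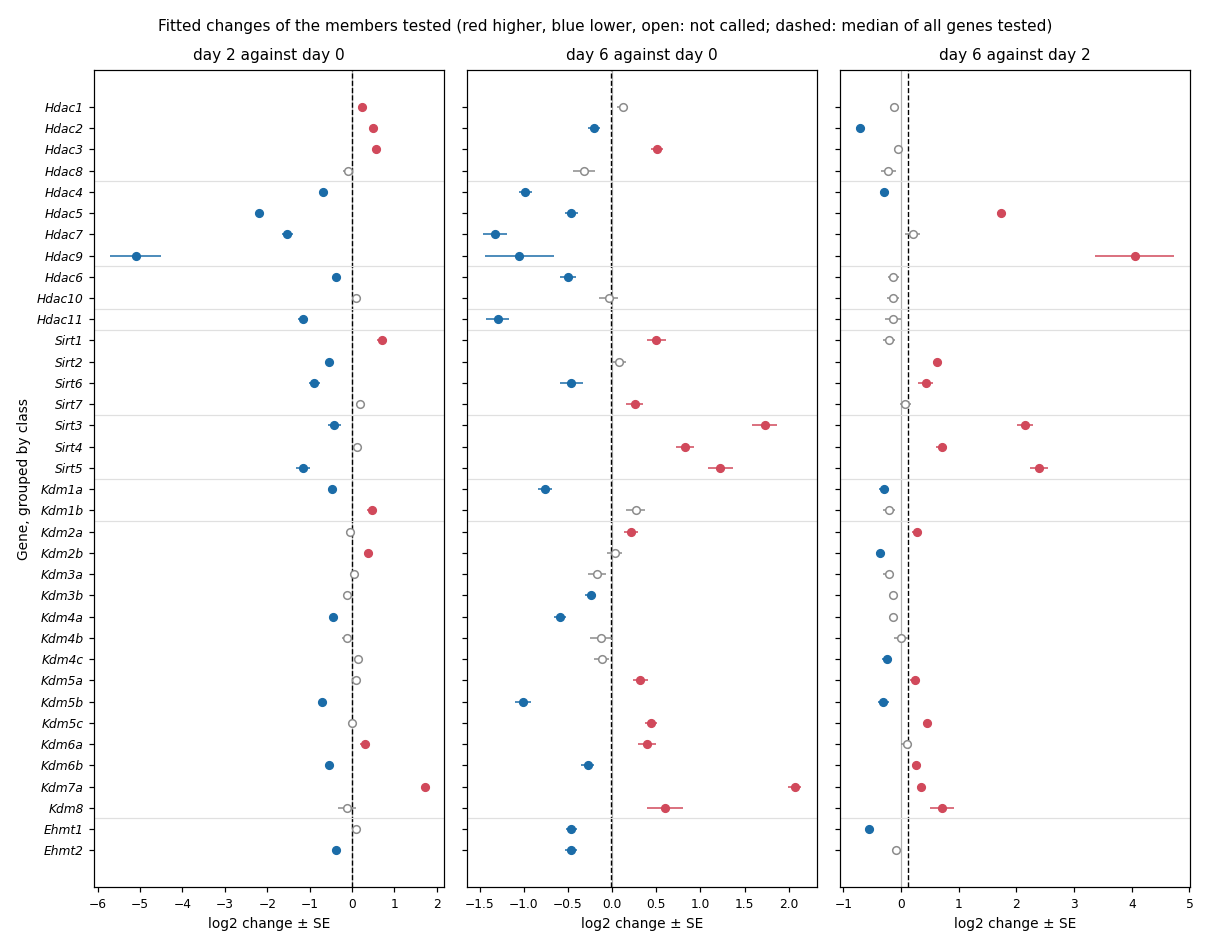
Fitted log2 change with its standard error for the 36 members tested, one panel per comparison, with separate horizontal scales. Filled red points passed the test upwards, filled blue points downwards and open points did not pass; the dashed line is the median of all genes tested. Hdac5, Hdac7, Hdac9, Hdac11 and Sirt5 lie far to the left at day 2, Sirt3 and Sirt5 far to the right at day 6, and Kdm7a is high in both comparisons with day 0.

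Class I deacetylases, the nuclear enzymes that do most of the deacetylation of histones, were higher at day 2 than at day 0 for 3 of 4 genes. Hdac2, which shares the catalytic place in the NuRD, Sin3 and CoREST complexes with Hdac1, stood at 101 and 102 CPM at day 0, 144 and 144 at day 2, then 84.9 and 90.8 at day 6. Both day 2 libraries lay above all the others, and the day 6 libraries lay lowest. The rise to day 2 was 0.50 ± 0.07 (log2, SE; adjusted p = 2.14e-04), and the fall from day 2 to day 6 was -0.71 ± 0.07 (1.64-fold, adjusted p = 2.92e-05), or -0.84 relative to the median of all genes. In these bulk libraries, fewer cells of a type and less RNA per cell cannot be told apart, here and in every result that follows. The smaller difference between day 6 and day 0 (-0.21, adjusted p = 0.0219) was no longer called without the filter on low counts (0.056), without either day 0 library (0.0984 without 76, 0.131 without 77) or without the day 6 library 76 (0.0789).

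Hdac1 was the most abundant deacetylase per kilobase of exon. It stood at 142 and 142 CPM at day 0, 169 and 165 at day 2, then 153 and 155 at day 6. Its rise to day 2 was small (0.23 ± 0.07, adjusted p = 0.0122) and was not called without the day 0 library 76 (0.23) or the day 2 library 76 (0.23). The change from day 2 to day 6 was -0.12 (adjusted p = 0.147). It was called with DESeq2's size factors (0.0358), DESeq2's Wald test (0.0384), library totals (5.43e-04) and only the 2 days fitted (0.0242). Hdac1 was also called lower without the day 0 library 77 (-0.25). Of its exonic sequence windows of 50 bases, 35.5% also occur in other genes, chiefly processed copies such as Gm10093, which held 25 to 46 counts per library against 3115 to 4960 for Hdac1. Hdac3, the catalytic subunit of the NCoR complexes, stood at 58.2 and 56.4 CPM at day 0 and between 78.4 and 85.2 in all later libraries. It rose by 0.56 ± 0.07 to day 2 (adjusted p = 1.17e-04) and by 0.50 ± 0.07 to day 6 (adjusted p = 1.93e-04).

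Hdac8, which deacetylates the cohesin ring that holds sister chromatids together, passed the test in no comparison. Its levels were 11.8 and 10.5 CPM at day 0, 11.1 and 9.82 at day 2, then 8.98 and 8.98 at day 6. The day 6 libraries lay below all day 0 libraries, by -0.31 ± 0.13 (adjusted p = 0.0510). That difference was called when the library number entered the fit as a block (adjusted p = 0.0495), with DESeq2's size factors (0.0361) and with library totals (0.0042), which also gave a fall from day 2 to day 6 (-0.58, adjusted p = 0.00399).

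The complexes in which class I enzymes work were split. Of 28 subunits of the NuRD, Sin3, CoREST and NCoR complexes, all tested, 8 rose and 7 fell at day 2, 7 rose and 12 fell at day 6 against day 0, and 6 rose and 12 fell from day 2 to day 6. Their median changes were 0.04, -0.19 and -0.12. With library totals the splits were 13 higher and 5 lower, 2 and 18, and 1 and 19, and with DESeq2's size factors the day 2 split was 10 and 5. Chd3, a chromatin remodeller of NuRD, fell most at day 2, from a mean of 483 ± 4.45 CPM (SD, n = 2) to 134 ± 0.614, and stood at 179 ± 25.5 at day 6. Ncor1, a corepressor that carries Hdac3, rose from 149 ± 1.33 CPM at day 0 to 177 ± 5.16 and then 240.2 ± 4.09 CPM at the later days. Rbbp7, a histone chaperone of both NuRD and Sin3, rose 1.74-fold at day 2 and fell 2.02-fold from there to day 6.

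Class IIa deacetylases fell as a family. These are large, signal-dependent corepressors with little enzyme activity of their own; they bind MEF2 transcription factors, and kinases of the CaMK, PKD and SIK families send them out of the nucleus, held by 14-3-3 proteins. All 4 (Hdac4, Hdac5, Hdac7 and Hdac9) were lower at both day 2 and day 6 than at day 0. Their median change was -1.86 at day 2 and -1.02 at day 6, against 0.00 and -0.01 for all genes tested.

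Hdac5 fell and came back. It stood at 115 and 111 CPM at day 0, 25.6 and 23.6 at day 2, then 79.9 and 84.0 at day 6. The groups did not overlap: every day 6 library lay between the day 2 and day 0 libraries. The fall to day 2 was -2.20 ± 0.07 (4.58-fold, adjusted p = 3.43e-07), the difference between day 6 and day 0 was -0.46 ± 0.07 (adjusted p = 4.08e-04), and the rise from day 2 to day 6 was 1.74 ± 0.07 (3.33-fold, adjusted p = 5.43e-07), or 1.61 relative to the median of all genes. The gene lies on the minus strand at chr11:102194432-102230166 of GRCm38. Its promoter is shown because, apart from the scarce Hdac9, no other member fell as much at day 2; it covers the 250 bases before the start of transcription in RefSeq (GRCm38.p6, chr11:102230173-102230422, minus strand), with capitals for CCAAT boxes, here both read on the opposite strand.
Hdac5: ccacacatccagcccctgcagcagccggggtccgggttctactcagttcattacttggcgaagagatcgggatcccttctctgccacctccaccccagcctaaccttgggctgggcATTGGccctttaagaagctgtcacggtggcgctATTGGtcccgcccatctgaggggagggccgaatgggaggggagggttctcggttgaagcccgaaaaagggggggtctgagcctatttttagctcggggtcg
A CCAAT box on either strand was present in 33.8% of all 32851 RefSeq promoter windows of this length, so its presence here is common.

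Hdac7, the class IIa gene with the highest mean per kilobase of exon on every day, though its day 6 libraries overlapped those of Hdac5, is best known from endothelial cells, smooth muscle and the thymus. It stood at 178 and 169 CPM at day 0, 58.7 and 61.4 at day 2, then 58.2 and 80.2 at day 6. Every later library held less than 1 in 2 of the day 0 level, and the day 6 libraries differed from each other more than those of the other days. The fall was -1.53 ± 0.13 to day 2 (2.89-fold, adjusted p = 2.09e-05) and -1.33 ± 0.13 to day 6 (2.51-fold, adjusted p = 3.45e-05). The change from day 2 to day 6 (0.20, adjusted p = 0.212) had no stable direction: it was 0.42 without the day 6 library 76 (adjusted p = 7.7e-04), -0.05 without the day 6 library 77 and -0.15 with library totals.

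Most markers of vessel cells fell at day 2 beside Hdac7. All 5 endothelial markers tested of 6 fell at day 2 and at day 6 against day 0, and the list summed to 29.7 to 33.5 CPM at day 0, 6.29 to 6.33 at day 2 and 11.97 to 15.8 at day 6. Of 6 mural markers, which mark pericytes and smooth muscle, 5 fell at day 2, with sums of 1530.2 to 1573 CPM at day 0, 46.6 to 47.8 at day 2 and 269.9 to 385 at day 6. Of these 6, 2 were higher and 4 lower at day 6 than at day 0, and 4 rose and 1 fell from day 2 to day 6. At day 6 the library 77 was the higher one for Hdac7 and for both lists. Their part in the level of Hdac7 was not tested.

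Hdac4 fell in 2 steps, from 48.4 and 49.4 CPM at day 0 to 30.02 and 30.5 at day 2 and 23.7 and 25.8 at day 6. No group overlapped another. The change was -0.69 ± 0.07 to day 2 (1.61-fold, adjusted p = 6.82e-05), -0.98 ± 0.08 to day 6 (1.97-fold, adjusted p = 8.26e-06) and -0.29 ± 0.08 between the later days (adjusted p = 0.0104). An antisense gene, Gm26720, overlaps 22.4% of the exonic bases of Hdac4, and since the strand setting of the counting is not given, reads there cannot be assigned to either gene with certainty.

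Hdac9, known for holding back adipocyte differentiation in precursors, was the scarcest deacetylase tested. It had 54 and 52 counts at day 0, 3 and 0 at day 2, then 22 and 18 at day 6, which is 1.79 and 2.14 CPM, 0.102 and 0, and 0.983 and 0.898. With 3 counts in all at day 2, the level at day 0 was 37.1 times that at day 2 (exact 95% counting interval 12.4 to 183) and the level at day 6 was 17.98 times (5.73 to 90.8). Both differences were called (adjusted p = 1.18e-04 and 9.64e-04), with fitted changes that depend on the day 2 libraries. The lower level at day 6 than at day 0 (-1.05 ± 0.39, adjusted p = 0.0386) was not called with DESeq2's Wald test (0.0928). The call was also lost without any one of the 4 libraries compared (changes of -1.18 to -0.91).

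Genes of the class IIa pathway did not move as one. Of 18 partners and kinases listed 17 were tested: 7 rose and 7 fell at day 2, 10 rose and 6 fell at day 6, and 9 rose and 2 fell from day 2 to day 6. With library totals the day 6 splits were 6 higher and 7 lower against day 0, and 4 and 7 against day 2. Sik2, a kinase that is abundant in adipocytes and phosphorylates class IIa enzymes, rose from 18.1 ± 0.649 CPM (SD, n = 2) at day 0 to 155 ± 8.87 at day 2 and then 222 ± 19.8 at day 6. Mef2c, a partner bound by the class, fell from 19.9 ± 1.51 CPM to 7.32 ± 0.128 and 9.02 ± 1.63. Camk2g, a calcium-dependent kinase, fell 2.36-fold at day 2 and 2.45-fold at day 6, while Ywhab, a 14-3-3 protein, rose 2.97-fold at day 6 against day 0.

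Class IIb and class IV deacetylases stood at 25.4 CPM or less in every library. Hdac6, the cytoplasmic deacetylase of tubulin, fell from 24.9 and 25.4 CPM at day 0 to between 17.7 and 20.5 in all later libraries (-0.37 ± 0.09 at day 2, adjusted p = 0.00567; -0.50 ± 0.09 at day 6, adjusted p = 0.00112). The call at day 2 was lost without the day 0 library 77 (0.171) or the day 2 library 76 (0.0568). Hdac10, which deacetylates polyamines, stood at 14.7 and 16.02 CPM at day 0, 17.4 and 15.5 at day 2, then 14.9 and 14.9 at day 6, and no comparison was called (adjusted p from 0.259 to 0.739). With library totals its day 6 level was called lower than at day 0 (0.0460) and day 2 (0.00406). Hdac11, the only class IV enzyme and one that removes fatty acyl groups, fell from 14.3 and 14.2 CPM at day 0 to 6.60 and 6.19 at day 2 and 5.41 and 6.18 at day 6. Its fall was -1.15 ± 0.12 at day 2 (2.22-fold, adjusted p = 6.74e-05) and -1.30 ± 0.13 at day 6 (2.46-fold, adjusted p = 3.42e-05), with no overlap between day 0 and the later days. Antisense genes overlap 17.9% of its exonic bases.

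**Figure D2:**
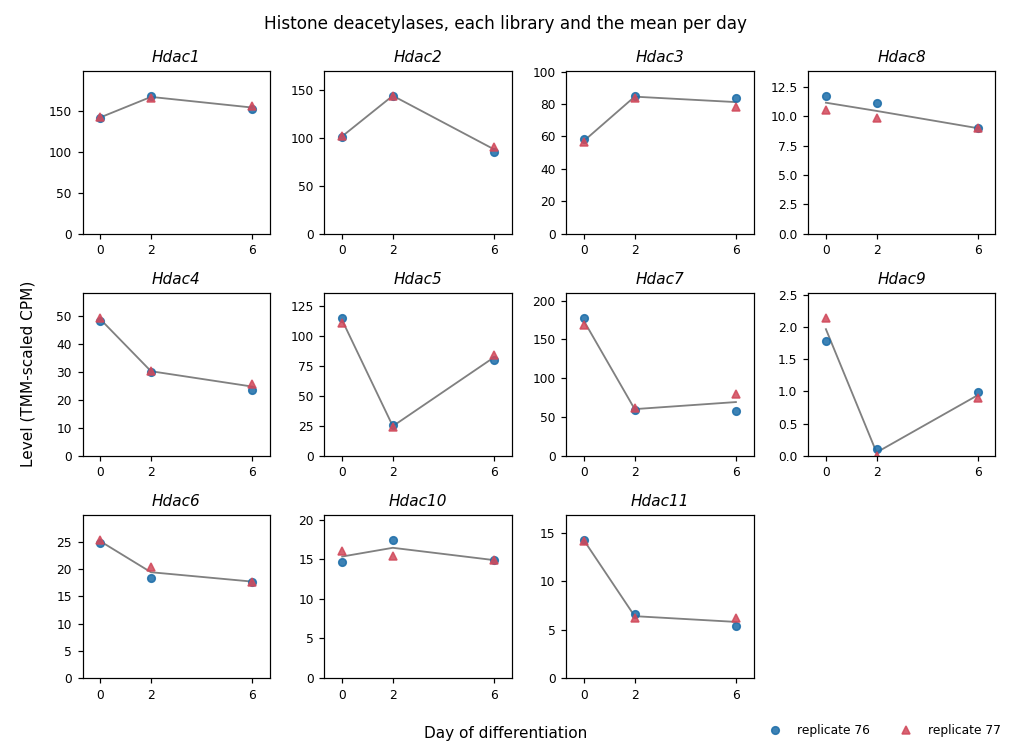
Level (TMM-scaled CPM, vertical axis from 0) of each histone deacetylase gene by day of differentiation; circles are library 76, triangles library 77 and lines join the means of each day. Hdac5 and Hdac9 dropped at day 2 and partly returned at day 6, Hdac4, Hdac7 and Hdac11 stayed low, and Hdac2 peaked at day 2.

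Among the nuclear and cytosolic sirtuins, 1 of 4 rose and 2 fell at day 2 (2 and 2 with library totals), 2 rose and 1 fell at day 6 against day 0 (1 and 1 with DESeq2's size factors, 0 and 1 with library totals), and 2 rose from day 2 to day 6 (2 higher and 1 lower with DESeq2's size factors, 1 and 2 with library totals). Sirt1, which deacetylates PGC-1 alpha and PPAR gamma, stood at 9.64 and 10.9 CPM at day 0, 16.2 and 17.2 at day 2, then 14.7 and 14.2 at day 6. All later libraries lay above day 0, by 0.71 ± 0.11 at day 2 (1.63-fold, adjusted p = 4.70e-04) and by 0.50 ± 0.11 at day 6 (adjusted p = 0.00348). The day 6 call was lost with library totals (0.25, adjusted p = 0.073). From day 2 to day 6 Sirt1 changed by -0.21 (adjusted p = 0.113). That fall was called with DESeq2's size factors (0.0495), library totals (0.00178), only the 2 days fitted (0.0273) and without the day 0 library 77 (-0.35).

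Sirt2 dipped and recovered. This cytosolic enzyme, which acts on tubulin and on the transcription factor FOXO1, stood at 63.3 and 58.4 CPM at day 0, 40.5 and 42.8 at day 2, then 65.0 and 63.7 at day 6, and was the most abundant sirtuin. It fell to day 2 by -0.55 ± 0.07 (1.46-fold, adjusted p = 2.08e-04) and rose again by 0.63 ± 0.07 (1.55-fold, adjusted p = 9.53e-05), or 0.51 relative to the median of all genes. The difference of day 6 from day 0 was not called (0.08 ± 0.07, adjusted p = 0.337).

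Sirt6, a chromatin-bound deacetylase of histone H3, was also lowest at day 2 but stayed below its start, at 24.6 and 20.7 CPM at day 0, 12.2 and 12.3 at day 2, then 18.3 and 14.7 at day 6. Its fall to day 2 was -0.89 ± 0.13 (1.85-fold, adjusted p = 4.40e-04). The difference of day 6 from day 0 (-0.46, adjusted p = 0.0129) was not called without the day 0 library 76 (0.11) or the day 6 library 77 (0.0572), and its rise from day 2 to day 6 (0.42, adjusted p = 0.0236) failed under 7 of the 12 alternatives, among them library totals (0.06, adjusted p = 0.675). Sirt7, the nucleolar sirtuin, ranged from 28.4 to 36.7 CPM over all libraries. It was called only at day 6 against day 0 (0.25, adjusted p = 0.0397), a call lost under 9 of the 12 alternatives, and in the joint test over all days its adjusted p was 0.0783. With library totals it was called higher at day 2 than at day 0 (0.29, adjusted p = 0.0161) and lower at day 6 than at day 2 (-0.29, 0.0172), and without either day 6 library it was called higher at day 2 (0.0481 and 0.0432).

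All 3 mitochondrial sirtuins were highest at day 6. Sirt3, the main deacetylase of the mitochondrial matrix, stood at 10.4 and 10.7 CPM at day 0, 7.85 and 7.88 at day 2, then 39.8 and 29.8 at day 6. Both day 6 libraries lay far above the others, and library 76 held the higher level. The rise was 1.73 ± 0.14 from day 0 (3.32-fold, adjusted p = 1.08e-05) and 2.15 ± 0.14 from day 2 (4.43-fold, adjusted p = 4.69e-06), or 2.02 relative to the median of all genes. Leaving out any one library gave rises from day 0 of 1.51 to 1.93. The small dip at day 2 (-0.42, adjusted p = 0.0379) was lost under 7 of the 12 alternatives, including each one that left out a day 0 or day 2 library. Sirt3 lies on the minus strand at chr7:140863666-140882309 of GRCm38, and exons of Psmd13 and Ric8a on the opposite strand overlap 12.7% of its exonic bases.

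Sirt5, which strips succinyl, malonyl and glutaryl groups from mitochondrial enzymes, fell first and then rose past its start. Its levels were 6.46 and 6.84 CPM at day 0, 3.16 and 2.77 at day 2, then 16.9 and 14.2 at day 6. No libraries of different days overlapped. The fall to day 2 was -1.16 ± 0.16 (2.24-fold, adjusted p = 2.94e-04), the rise from day 2 to day 6 was 2.39 ± 0.16 (5.23-fold, adjusted p = 3.84e-06; 2.26 relative to the median), and day 6 lay above day 0 by 1.23 ± 0.14 (2.34-fold, adjusted p = 8.74e-05). Sirt5 lies on the plus strand at chr13:43365496-43395203, and 14.2% of its exonic windows of 50 bases also occur elsewhere in annotated transcripts. Its promoter is shown because, Hdac9 apart, no other member rose as much between day 2 and day 6. These are 211 bases from RefSeq (GRCm38.p6, chr13:43365285-43365495, plus strand), ending 39 bases before the start of transcription, where annotated exon sequence begins; capitals mark a half-site of the estrogen-related receptors (AAGGTCA), the nuclear receptors that PGC-1 alpha coactivates, and a CCAAT box.
Sirt5: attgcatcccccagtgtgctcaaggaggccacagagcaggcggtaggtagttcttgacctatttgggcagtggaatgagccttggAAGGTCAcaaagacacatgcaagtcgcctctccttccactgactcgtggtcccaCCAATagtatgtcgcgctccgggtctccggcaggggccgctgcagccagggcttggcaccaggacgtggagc
The half-site, on either strand, was present in 4.08% of all 32851 windows and in 2 of the 42 windows of members, those of Sirt5 and Kdm6a.

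Sirt4, a mitochondrial lipoamidase and ADP-ribosyltransferase, rose later than day 2. It stood at 11.2 and 11.3 CPM at day 0, 12.6 and 11.8 at day 2, then 19.2 and 20.6 at day 6. The rise was 0.82 ± 0.10 from day 0 (1.77-fold, adjusted p = 1.15e-04) and 0.70 ± 0.10 from day 2 (1.63-fold, adjusted p = 3.27e-04), or 0.58 relative to the median. All 3 mitochondrial sirtuins were called higher at day 6 than at both earlier days, under TMM, DESeq2's size factors and library totals alike, with a median change of 1.23 against day 0 and 2.15 against day 2, beside -0.01 and 0.12 for all genes tested.

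**Figure D3:**
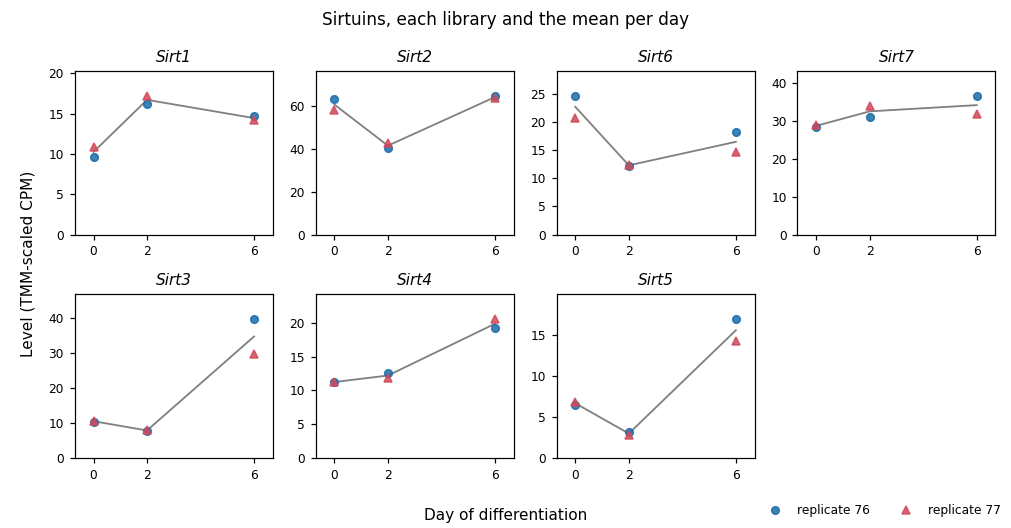
Level (TMM-scaled CPM, vertical axis from 0) of each sirtuin gene by day of differentiation; circles are library 76, triangles library 77 and lines join the means of each day. In the lower row the mitochondrial Sirt3, Sirt4 and Sirt5 have both day 6 libraries above all the others, and in the upper row Sirt2 and Sirt6 are lowest at day 2.

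Most of the listed substrates of the mitochondrial sirtuins were higher at day 2 already. Of 10 listed enzymes 9 were tested: 8 rose at day 2 and 9 at day 6 against day 0 (8 with library totals). From day 2 to day 6, 8 rose and 1 fell (5 and 1 with library totals). The median changes were 1.84, 2.93 and 1.503. Acadl, the long-chain acyl-CoA dehydrogenase of fat oxidation, went from 51.1 ± 1.31 CPM (SD, n = 2) at day 0 to 218 ± 1.197 at day 2 and then 996 ± 149.6 at day 6. Sod2, the mitochondrial superoxide dismutase, went from 53.6 ± 4.97 to 280.0 ± 7.26 and 398 ± 35.3 CPM.

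Genes that make or use NAD, the cosubstrate of all sirtuins, were divided: of 18 listed and 17 tested, 8 rose and 5 fell at day 2, 8 rose and 3 fell at day 6 against day 0, and 8 rose and 6 fell from day 2 to day 6. Their median changes were 0.39, 0.24 and 0.54. With library totals the split from day 2 to day 6 was 4 higher and 6 lower. Nampt, the rate-limiting enzyme of the salvage route, rose from 54.4 ± 3.22 CPM at day 0 to 175 ± 11.1 at day 2 and then 356 ± 72.6 at day 6. Nmnat1, which makes NAD in the nucleus, stood at 4.26 ± 0.435, 5.66 ± 0.318 and 23.9 ± 1.70 CPM, and Nadsyn1, the last step of synthesis from tryptophan, rose 3.18-fold by day 6. In the other direction Nmnat2 fell 3.40-fold and Nnt, the transhydrogenase of the inner membrane, 2.41-fold at day 6 against day 0, and Naprt fell 2.72-fold at day 2.

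The flavin-dependent demethylases moved apart. Kdm1a (LSD1), which demethylates lysine 4 of histone H3 within CoREST, fell from 86.5 and 86.2 CPM at day 0 to 62.9 and 62.3 at day 2 and 47.4 and 54.9 at day 6. Every step separated the libraries of the days. The change was -0.46 ± 0.08 at day 2 (adjusted p = 9.19e-04), -0.76 ± 0.08 at day 6 (1.69-fold, adjusted p = 4.95e-05) and -0.29 between the later days (adjusted p = 0.0119), the last not called without the day 2 library 76 (0.0568). Kdm1b, its relative with a zinc finger, ranged from 13.9 to 21.01 CPM and rose at day 2 (0.47 ± 0.10, adjusted p = 0.00415), and its day 6 value did not pass the test against day 0 (adjusted p = 0.0525; 0.0220 without the day 6 library 77).

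Of the JmjC demethylases 14 of 15 were tested. At day 2, 3 rose and 3 fell; at day 6 against day 0, 6 rose and 4 fell; from day 2 to day 6, 6 rose and 3 fell. With DESeq2's size factors the last split was 3 higher and 6 lower, and with library totals the splits at day 6 were 2 and 7 against day 0 and 0 and 8 against day 2. Their median changes were -0.03, -0.05 and 0.05. The largest was that of Kdm7a, which removes methyl groups from lysines 9 and 27 of histone H3.

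Kdm7a stood at 21.3 and 21.8 CPM at day 0, 68.9 and 74.0 at day 2, then 92.4 and 88.4 at day 6. All libraries of a later day lay above all those of an earlier one. The rise was 1.73 ± 0.07 at day 2 (3.31-fold, adjusted p = 7.91e-07) and 2.07 ± 0.07 at day 6 (4.19-fold, adjusted p = 1.05e-07). The further rise from day 2 to day 6 (0.34, adjusted p = 0.00239; 0.22 relative to the median) turned to -0.02 with library totals and was not called without the day 0 library 77 (0.058) or with only the 2 days fitted (0.0505). The gene lies on the minus strand at chr6:39136623-39206789. Its promoter is shown because no other member rose as much at day 2; these are 234 bases from RefSeq (GRCm38.p6, chr6:39206790-39207023, minus strand), ending 16 bases before the start of transcription, and capitals mark an ETS site (CCGGAAG).
Kdm7a: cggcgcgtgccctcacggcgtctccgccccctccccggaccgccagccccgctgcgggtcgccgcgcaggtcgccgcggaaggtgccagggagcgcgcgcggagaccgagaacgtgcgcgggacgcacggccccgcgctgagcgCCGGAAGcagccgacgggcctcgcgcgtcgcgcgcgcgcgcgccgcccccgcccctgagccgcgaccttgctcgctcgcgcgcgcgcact
An ETS site on either strand was present in 6.91% of all 32851 windows and in 6 of the 42 windows of members.

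The Kdm5 demethylases of lysine 4 of histone H3 went separate ways. Kdm5b stood at 99.3 and 88.7 CPM at day 0, 55.1 and 60.8 at day 2, then 44.5 and 49.1 at day 6. The libraries of different days did not overlap, and the fall was -0.70 ± 0.09 at day 2 (1.62-fold, adjusted p = 1.61e-04) and -1.01 ± 0.09 at day 6 (2.01-fold, adjusted p = 1.75e-05). From day 2 to day 6 Kdm5b fell by -0.31 ± 0.09 (adjusted p = 0.0159). That call was lost without the day 2 library 77 (-0.24) or the day 6 library 76 (-0.24). Kdm5c, on the X chromosome, was level at first and then rose, with 120.1 and 117 CPM at day 0, 119 and 116 at day 2, then 163 and 158 at day 6. Its rise was 0.44 ± 0.07 from day 0 (adjusted p = 4.07e-04) and 0.45 ± 0.07 from day 2 (adjusted p = 4.15e-04), which is 0.32 relative to the median and was not called with library totals (0.09, adjusted p = 0.276). Kdm5a ranged from 61.7 to 83.8 CPM and was called higher at day 6 than at day 0 (0.32, adjusted p = 0.00775). That call was lost with library totals (0.07, adjusted p = 0.423) and without the day 0 library 77 (0.26). Kdm5a was also called higher at day 6 than at day 2 (0.24, adjusted p = 0.0320). This rise turned to -0.12 with library totals and was not called with DESeq2's size factors (0.105).

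Of the Kdm4 enzymes, which act on trimethylated lysines 9 and 36 of histone H3, only Kdm4a was called at day 2. It fell from 131 and 125 CPM at day 0 to 93.1 and 94.8 at day 2 and 86.5 and 83.7 at day 6, by -0.45 ± 0.06 (adjusted p = 3.81e-04) and then -0.59 ± 0.07 (1.504-fold, adjusted p = 6.54e-05) against day 0. From day 2 to day 6 Kdm4a changed by -0.14 (adjusted p = 0.0866). That fall was called with DESeq2's size factors (0.0217), DESeq2's Wald test (0.0349), library totals (2.33e-04), only the 2 days fitted (0.0149) and without the day 0 library 77 (-0.28). Kdm4b passed the test in no comparison (adjusted p from 0.378 to 0.992), with 56.7 and 50.7 CPM at day 0, 50.8 and 47.7 at day 2, then 55.6 and 42.6 at day 6, where its libraries spanned nearly the whole range of the gene. It was called lower at day 6 than at day 0 without the day 6 library 76 (-0.33, adjusted p = 0.0119) and with library totals (-0.38, 0.0151), which also gave a fall from day 2 to day 6 (-0.36, 0.0190). Kdm4c ranged from 21.9 to 27.7 CPM and was called only from day 2 to day 6 (-0.25, adjusted p = 0.0300), which did not hold without the day 0 library 76 (0.0543), the day 2 library 77 (0.155) or the day 6 library 76 (0.0866). With library totals Kdm4c was also higher at day 2 (0.24, adjusted p = 0.0367) and lower at day 6 (-0.36, 0.00617) than at day 0. Kdm4d, known from the testis, had 0 to 12 counts per library and was not tested.

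Kdm3a, a demethylase of lysine 9 of histone H3 that is known from mice that become obese without it, passed the test in no comparison. It stood at 38.0 and 33.4 CPM at day 0, 36.7 and 36.9 at day 2, then 34.3 and 29.1 at day 6. From day 2 to day 6 its change was -0.22 (adjusted p = 0.0919), which was called with the library number as a block (0.0477), DESeq2's size factors (0.0381), library totals (6.78e-04), only the 2 days fitted (0.0195), and without the day 0 library 77 (0.0203) or the day 6 library 76 (0.0151). Against day 0, the day 6 level was called lower with library totals (0.00343) and without the day 6 library 76 (0.0294). Kdm3a is a textbook target of hypoxia-inducible factors. A list of 13 hypoxia genes, which also holds Hif1a and Epas1, genes of such factors, was split. Of these, 2 were higher and 5 lower at day 2, and 5 higher and 5 lower at day 6 against day 0. Among these Egln3 went from 5.34 ± 1.72 CPM at day 0 to 93.0 ± 39.2 at day 6 and Adm from 165 to 16.4 CPM at day 2. Kdm3b, the close relative of Kdm3a, fell slightly, from 69.2 and 67.4 CPM at day 0 to 57.5 and 57.7 at day 6 (-0.25, adjusted p = 0.00716). The call was lost without the day 0 library 76 (-0.23). An antisense gene, Gm26538, overlaps 24.6% of the exonic bases of Kdm3b, so reads there cannot be assigned to either gene with certainty.

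The remaining JmjC members changed by less than 1.5-fold, except Kdm8. Kdm6a, the X-linked demethylase of lysine 27 of histone H3, ranged from 14.97 to 21.1 CPM and was called higher at day 2 (0.30, adjusted p = 0.0271) and at day 6 (0.40, adjusted p = 0.00764) than at day 0. Both calls fell away without the day 0 library 76 (adjusted p = 0.189 and 0.0705), the first also without the day 2 library 77 (0.137) and the second with library totals (0.228). Kdm6b, its inducible relative, was lower at day 2 (60.3 ± 3.30 CPM, SD, n = 2) than at day 0 (87.6 ± 5.85; -0.54 ± 0.08, adjusted p = 3.29e-04), with 72.3 ± 2.28 CPM at day 6. Kdm6b was called lower at day 6 than at day 0 (-0.28, adjusted p = 0.0110), a change of -0.21 without the day 0 library 76. It was called higher at day 6 than at day 2 (0.26, adjusted p = 0.0161). This rise turned to -0.10 with library totals and was not called with DESeq2's size factors (0.0583). The antisense gene Kdm6bos held 2 to 7 counts per library.

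Kdm2a and Kdm2b, demethylases of lysine 36 of histone H3 that bind unmethylated CpG islands, had their highest levels on different days. Kdm2b, a subunit of a Polycomb complex, was highest at day 2 (32.3 ± 0.218 CPM) and stood at 24.8 ± 1.16 at day 0 and 25.3 ± 1.30 at day 6, a rise of 0.39 ± 0.08 (adjusted p = 0.00292) and a fall of -0.36 ± 0.08 (adjusted p = 0.0048). Kdm2a was highest at day 6 (146 ± 5.74 CPM), against 125 ± 6.82 at day 0 and 121 ± 6.60 at day 2, but its 2 calls (adjusted p = 0.0340 and 0.0143) each failed under 5 alternatives and turned negative with library totals (-0.03 and -0.09). Kdm8, whose activity as a demethylase is debated, stood at 4.04 and 4.33 CPM at day 0, 4.15 and 3.56 at day 2, then 5.27 and 7.38 at day 6. It was called higher at day 6 than at day 0 (0.59 ± 0.20, 1.51-fold, adjusted p = 0.0289) and than at day 2 (0.71 ± 0.20, 1.63-fold, adjusted p = 0.0149). Neither call held without the day 6 library 77 (changes of 0.35 and 0.45) or the day 0 library 77 (0.65 and 0.57). Both were also lost with library totals (adjusted p = 0.178 and 0.183) and with DESeq2's Wald test (0.0796 and 0.0510). The first was lost without the day 0 library 76 too. The second was lost without the day 2 library 77 and with only the 2 days fitted (0.0559).

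JmjC proteins outside the Kdm names mostly rose against day 0. Of 13 listed 11 were tested: 6 rose and 1 fell at day 2, and 7 rose at day 6 against day 0, where the split was 7 higher and 1 lower with DESeq2's size factors and 4 higher and 2 lower with library totals. From day 2 to day 6, 3 rose and 3 fell, against 2 and 4 with DESeq2's size factors and 1 and 7 with library totals. Jarid2, a partner of Polycomb complex 2 with no demethylase activity, rose from 24.3 ± 0.815 CPM to 53.3 ± 1.76 at day 2 and 41.5 ± 1.67 at day 6. Jmjd1c, a relative of Kdm3a known for lipogenic genes in liver, rose from 35.3 ± 1.39 CPM to 76.1 ± 6.99 and 55.2 ± 5.38.

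**Figure D4:**
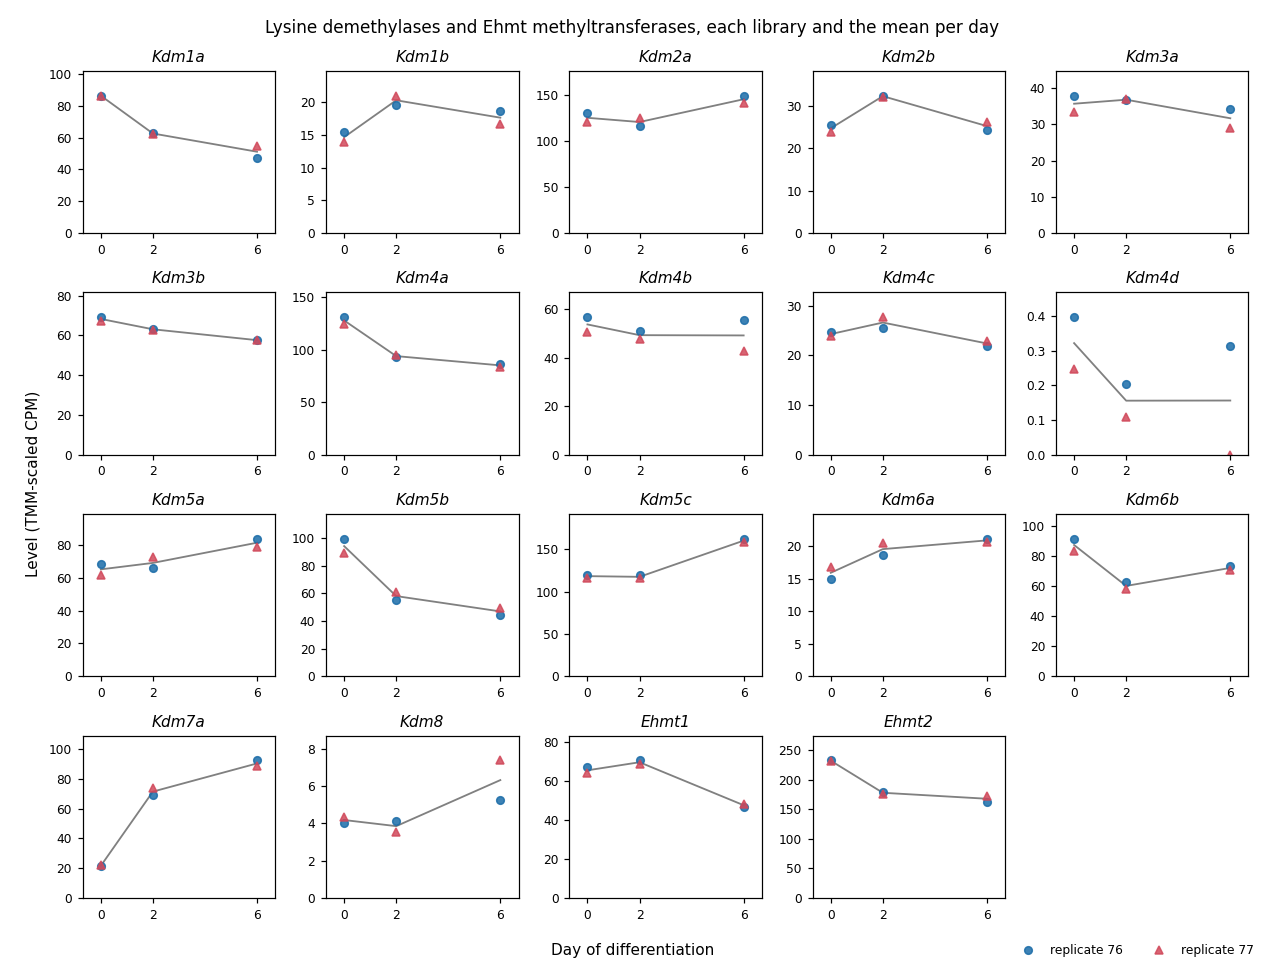
Level (TMM-scaled CPM, vertical axis from 0) of each lysine demethylase gene and of Ehmt1 and Ehmt2 by day of differentiation; circles are library 76, triangles library 77 and lines join the means of each day. Kdm7a rose at day 2 and stayed high, Kdm1a and Kdm5b fell at each step, Kdm4a fell at day 2, Kdm5c rose at day 6, and Ehmt1 fell after day 2.

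The methyltransferases Ehmt1 (GLP) and Ehmt2 (G9a), which work as a pair on lysine 9 of histone H3, declined at different times, and with library totals Ehmt1 was called higher at day 2 (0.20, adjusted p = 0.0343). Ehmt2 stood at 232 and 231 CPM at day 0, 179 and 176 at day 2, then 162 and 173 at day 6. It fell by -0.38 ± 0.07 at day 2 (adjusted p = 0.00144) and by -0.47 ± 0.07 at day 6 against day 0 (adjusted p = 4.14e-04). The call at day 2 was lost without the day 0 library 77 (-0.24). From day 2 to day 6 Ehmt2 changed by -0.08 (adjusted p = 0.320). That fall was called with library totals (-0.44, adjusted p = 0.0016) and with only the 2 days fitted (-0.22, 0.0481). Ehmt1, known as a partner of PRDM16 in brown fat, had 65.5 ± 2.05 CPM (SD, n = 2) at day 0 and 69.7 ± 1.30 at day 2, and fell to 47.6 ± 1.00 at day 6 (-0.46 ± 0.07 against day 0, adjusted p = 2.86e-04; -0.55 ± 0.07 against day 2, adjusted p = 1.18e-04, or -0.67 relative to the median of all genes).

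Other enzymes that write histone methylation were divided. Of 25 lysine methyltransferases, all tested, 9 rose and 6 fell at day 2, 7 rose and 10 fell at day 6 against day 0, and 6 rose and 13 fell from day 2 to day 6, with median changes of 0.05, -0.20 and -0.24. With library totals the day 6 splits were 3 higher and 15 lower against day 0 and 3 and 19 against day 2, and with DESeq2's size factors the latter was 4 and 15. Suv39h2, which trimethylates the same lysine as the Ehmt pair prepares, went from 1.65 ± 0.461 CPM to 7.28 ± 0.241 at day 2 and 1.39 ± 0.126 at day 6. Ezh2, the Polycomb enzyme that the Kdm6 demethylases oppose, went from 15.9 ± 1.63 to 35.7 ± 2.88 and 11.4 ± 0.149 CPM. Dot1l, which methylates lysine 79 in the core of histone H3, rose from 40.9 ± 0.931 CPM to 78.6 ± 4.82 and 96.5 ± 2.40.

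Acetyltransferases, the opponents of the deacetylases, were also divided: of 10, all tested, 3 rose and 5 fell at day 2, 3 rose and 5 fell at day 6 against day 0, and 2 rose and 3 fell from day 2 to day 6. With library totals those splits were 5 higher and 3 lower, 1 and 6, and 1 and 7. Hat1, which acetylates newly made histone H4, went from 16.5 ± 0.216 CPM at day 0 to 50.4 ± 1.38 at day 2 and then 17.3 ± 1.04 at day 6. Kat2a and Kat2b, the paired GCN5 and PCAF enzymes, moved in opposite ways at day 2: Kat2a rose 1.57-fold and Kat2b fell 1.60-fold. Replication and mitosis genes moved with the day 2 peaks of Hat1, Ezh2, Suv39h2 and Hdac2: all 15 rose at day 2, 14 fell below day 0 at day 6, and their summed level was 457 to 476 CPM at day 0, 1612 to 1702 at day 2 and 178 to 216 at day 6. Their part in those peaks was not tested.

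The order of the members by level per kilobase of exon put Hdac1 and Ehmt2 at the top on every day. At day 0 Ehmt2 had 42.2 CPM per kilobase and Hdac1 41.2, with libraries that did not overlap, followed by Hdac7 at 25.7. Hdac2 (22.7) and Kdm4a (22.1) came next and overlapped, as did Kdm1a (16.7) and Kdm5c (16.7). At day 2 Hdac1 led with 48.5 CPM per kilobase, and Ehmt2 (32.4) and Hdac2 (32.1) overlapped in second place, ahead of Hdac3 at 20.9. Hdac7 had moved from the third place to the ninth, at 8.89 CPM per kilobase.

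At day 6 the order was Hdac1 (44.7 CPM per kilobase), Ehmt2 (30.5), Kdm5c (22.6), then Hdac3 (20.02) and Hdac2 (19.6), which overlapped, and Kdm4a (14.7). Sirt2 led the sirtuins at every day, with 12.1, 8.26 and 12.8 CPM per kilobase. Hdac9 and Kdm4d closed the order on every day, with at most 0.134 and 0.113 CPM per kilobase. Sirt5 was the lowest of the other members at day 0 (1.09) and at day 2 (0.487), and at day 6 that place went to Hdac11 (1.51), whose libraries overlapped those of Hdac4 (1.57).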

How the data were processed

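Polyadenylated RNA of 6 libraries was sequenced. The submitters' processing notes name TopHat2 2.0.13, an aligner, HTSeq 0.9.1, a read counter, and the builds mm10 and GRCm38; the sources used here give no counting settings, annotation or strand. The deposited values are raw read counts per gene, although the column names say RPKM: they are whole numbers, and each column ends in the 5 summary lines of HTSeq. Those lines held 11.8% to 16.1% of alignments and stayed out of all sums and tests. A count of 0 allows up to 3 counts, or 0.0994 to 0.150 CPM, and, as PCR copies carry no molecular identifiers, intervals and floors cover counting error only.

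The members and the gene lists beside them were chosen with earlier results of these data known. Counts were tested with edgeR 4.0.16 in R 4.3.3 (quasi-likelihood F test, TMM scaling, filterByExpr, a mean per day over all 6 libraries, 3 residual degrees of freedom, Benjamini-Hochberg over 14459 genes, threshold 0.05), and the steps were tested on simulated counts. Standard errors are the absolute log2 change divided by the square root of F. Values in every library are given for members called with a change of 1.5-fold or more, members called in no comparison and the most abundant of each family per kilobase; other members are given by range or mean, a few in full. From each list at most 2 rises and 2 falls per comparison are named, with a mean of at least 1 CPM. Exon lengths, gene overlaps and shared windows of 50 bases come from GENCODE M21 (GRCm38), and promoters from RefSeq (GRCm38.p6), where 29 of 37 members had a window. Motifs, chosen after the values were seen, were searched on both strands of the 250 bases before each start.

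Same-numbered libraries deviated together weakly, with Pearson's r across genes of 0.109 (days 0 and 2), 0.112 (days 0 and 6) and 0.213 (days 2 and 6), all above the limit of 0.1. Spearman's correlations for the same days were 0.0589, 0.0546 and 0.176, and only the last was above that limit. By Pearson's r, same-numbered libraries were treated as pairs in the fit with the library number as a block. The values given come from the fit without it, and the sources used here do not say what 76 and 77 mark. Alternatives were DESeq2's size factors, library totals, no filter, the library number as a block, each library left out, only the 2 days compared, and DESeq2's Wald test (1.42.0). Some listed genes that enter the counts of their lists are not reported here by name.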

Additional observations from a re-analysis of the deposited data

How the results depend on the processing

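With 2 libraries per day and 3 residual degrees of freedom, changes of well under 1.5-fold rest on few libraries, and for Hdac9, Kdm4d and Kdm8 depth limits the precision as well. Of 1296 changes of members recomputed over all alternatives, 1113 kept their direction and their side of the threshold, 89 lost the call, 51 gained one and 43 turned in direction; of 83 counts of members, 74 stayed within 1.5 times the value given above, and of 1224 counts of the other lists, 1132. The library number as a block (8 members higher and 15 lower at day 2, 12 and 16 at day 6 against day 0, 13 and 8 from day 2 to day 6) added the calls of Hdac8 at day 6 against day 0 (adjusted p = 0.0495) and of Kdm3a from day 2 to day 6 (0.0477), and changed no other member's call.

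The counts of members from day 2 to day 6 moved most. Against 13 higher and 7 lower, they were 6 and 22 with library totals, 7 and 14 with only the 2 days fitted, 12 lower with DESeq2's size factors and 8 higher with DESeq2's Wald test; library totals also gave 6 higher at day 6 against day 0. Leaving out 1 library at a time gave 7 to 13 higher and 5 to 13 lower from day 2 to day 6, 8 to 12 higher and 10 to 16 lower at day 6 against day 0, 6 to 9 higher and 12 to 15 lower at day 2, and 27 to 31 members differing between any days. The cause was not tested.

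Of the changes that turned in direction, those of Sirt7 (adjusted p = 0.0172) and Kdm6a (0.0491) from day 2 to day 6 passed the threshold in the turned direction, with library totals. The called rises that turned were those of Kdm2a, Kdm5a, Kdm6b and Kdm7a (0.34) from day 2 to day 6, and of Kdm2a at day 6 against day 0. With library totals the turned values at day 2 were Hdac8 0.017, Kdm2a 0.057 and Kdm5c 0.10; at day 6 against day 0 Hdac1 -0.13, Kdm2a -0.032, Kdm2b -0.22 and Sirt2 -0.17; and from day 2 to day 6 Hdac7 -0.15, Kdm2a -0.089, Kdm5a -0.12, Kdm6a -0.26, Kdm6b -0.10, Kdm7a -0.019 and Sirt7 -0.29. DESeq2's size factors gave Kdm2b -0.0014 at day 6 against day 0 and Kdm5c 0.031 at day 2. Without the filter Kdm5c was 0.0019 at day 2. With only the 2 days fitted Kdm6a was -0.034 and Sirt7 -0.058 from day 2 to day 6. DESeq2's Wald test gave Kdm2b -0.0023 at day 6 against day 0, Kdm5c 0.038 at day 2 and Sirt7 -0.0058 from day 2 to day 6.

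Leaving out 1 library at a time, the changes that turned ranged at day 2 from -0.18 to 0.0035 for Hdac8, -0.097 to 0.039 for Kdm2a, -0.11 to 0.014 for Kdm3b, -0.023 to 0.12 for Kdm5c and -0.22 to 0.081 for Kdm8. At day 6 against day 0 they ranged from -0.11 to 0.032 for Hdac10, -0.015 to 0.086 for Kdm2b and -0.33 to 0.060 for Kdm4b, and from day 2 to day 6 from -0.046 to 0.42 for Hdac7, -0.21 to 0.18 for Kdm4b, -0.041 to 0.16 for Kdm6a and -0.064 to 0.17 for Sirt7. The cause was not tested.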

Other observations

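Promoter letters were compared across the members, as a description with no test. Of the 42 promoter windows of the 29 members that had one, 25 held a GC box (GGGCGG), against 32.7% of all 32851 windows, and 16 held a CCAAT box, against 33.8%. An E-box (CACGTG) was present in 5 windows of members and in 6.02% of all windows, and an NRF1 site in 3 windows of members, those of Ehmt1, Kdm4c and Sirt6, and in 3.74% of all. The cyclic AMP response element TGACGTCA, found in 1.55% of all windows, was in none of the windows of members. Several members have more than 1 window, and windows of the same gene can overlap, as those of Kdm2b do. Both E-box matches in the window of Sirt1 and the letters found in the windows of Sirt5 and Kdm7a are descriptions of these bases, and binding was not measured.

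Other cell type markers also moved. Ngfr, a receptor listed here as a Schwann cell marker and also found on other stromal cells, had 122 CPM before induction, 16.6 at day 2 and 6.19 at day 6, while Sox10, which defines Schwann cells, stood at 0.496, 0.447 and 0.502 CPM. Mrc1, a marker of resident macrophages, was 4.84-fold higher at day 6 than at day 0, and Cspg4, a pericyte marker, 6.52-fold higher, although 4 of the 6 mural markers were lower at day 6 than at day 0 and that list summed to 1530.2 to 1573 CPM at day 0 and 269.9 to 385 at day 6. The macrophage list summed to 120.3 CPM in the day 6 library 76 and 52.1 in the day 6 library 77.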
